A study of Bos taurus with 16 samples.

Results

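Corpora lutea of pregnant cattle collected on day 23 were compared with those collected on day 17, 4 libraries against 4 of the 16 in the series. A corpus luteum is the gland that forms from the ruptured follicle and secretes progesterone. Messenger RNA was given as RPKM, the reads of a gene scaled by its length and by the total of its library. Of 27233 genes in the table, 12913 were compared, those that reached an RPKM of 1 in 4 or more of these 8 libraries. That filter leaves 199 genes that reached an RPKM of 1 in exactly 4 libraries just inside and 222 that reached it in exactly 3 just outside, and 11944 genes reached it in all 8. Each library is from the corpus luteum of 1 of 16 cattle found pregnant, bred at natural estrus and inseminated after it, and day 17 and day 23 count from breeding. The labels name no treatment, and by them the groups differ only in the day of collection. The comparison asks how the gland of pregnancy differs between these days.

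The corpus luteum is built of steroid-making luteal cells packed among capillaries, so that endothelial cells and the pericytes around them make up a large part of the tissue. It grows by angiogenesis after ovulation and is destroyed by prostaglandin F2 alpha from the uterus unless an embryo is present. In ruminants the embryo signals through interferon tau, a type I interferon from its outer cell layer, which switches on interferon-stimulated genes in the uterus and in tissues reached by blood, among them the corpus luteum.

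The 8 libraries held 31.1 to 40.1 M reads and 12614 to 12994 genes at an RPKM of 1 or more, and between 16.13% and 19.45% of a library came from its 50 most abundant genes. Steroidogenic genes that define luteal cells were among the most abundant in all 8 libraries: HSD3B1 was never under an RPKM of 4141 and STAR never under 1594. Correlations of log2(RPKM + 1) across genes ran from 0.965 to 0.982 between animals of the same day and from 0.962 to 0.984 between animals of the 2 days, so that the days did not separate as wholes. 1 row that the table names RF00002 took 0.328% of the reads of day 23 replicate 3, against 0.00318% to 0.00658% in the other 7 libraries.

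No gene passed an adjusted p of 0.05, which is 0% of 12913. The test was limma on log2(RPKM + 1) with Benjamini-Hochberg adjustment over all genes, and the smallest adjusted p was 0.0884. At an unadjusted p of 0.05, 1157 genes (8.96%) had a lower mean on day 23 and 378 (2.93%) a higher one. In 685 genes (5.3%) all 4 animals of day 23 lay below all 4 of day 17, and in 168 (1.3%) all 4 lay above. With 1 library left out a lack of overlap is easier to reach. Then 815 to 1205 genes lay below and 252 to 409 above. The mean of day 23 was the lower one in 7727 genes, 59.8% of all. These percentages are the background for the gene groups below, and 59.8% is the one for counts of members with a lower mean. All p-values measure the spread between animals. For a single gene, exact two-sided permutation over these libraries has 70 regroupings and cannot give a p under 0.0286.

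The balance of lower and higher genes depended on the scaling of the libraries. The median log2 fold change over all genes was −0.04 as deposited. With each library rescaled by its median ratio to the others, 800 genes were lower and 668 higher at an unadjusted p of 0.05, so that the share of lower genes among them went from 75.4% to 54.5%. Without overlap, 3.65% of genes were then below and 2.48% above. Under that scaling all 22 endothelial markers and 33 of 34 cell cycle genes, described next, still had a lower mean on day 23.

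**Figure D1:**
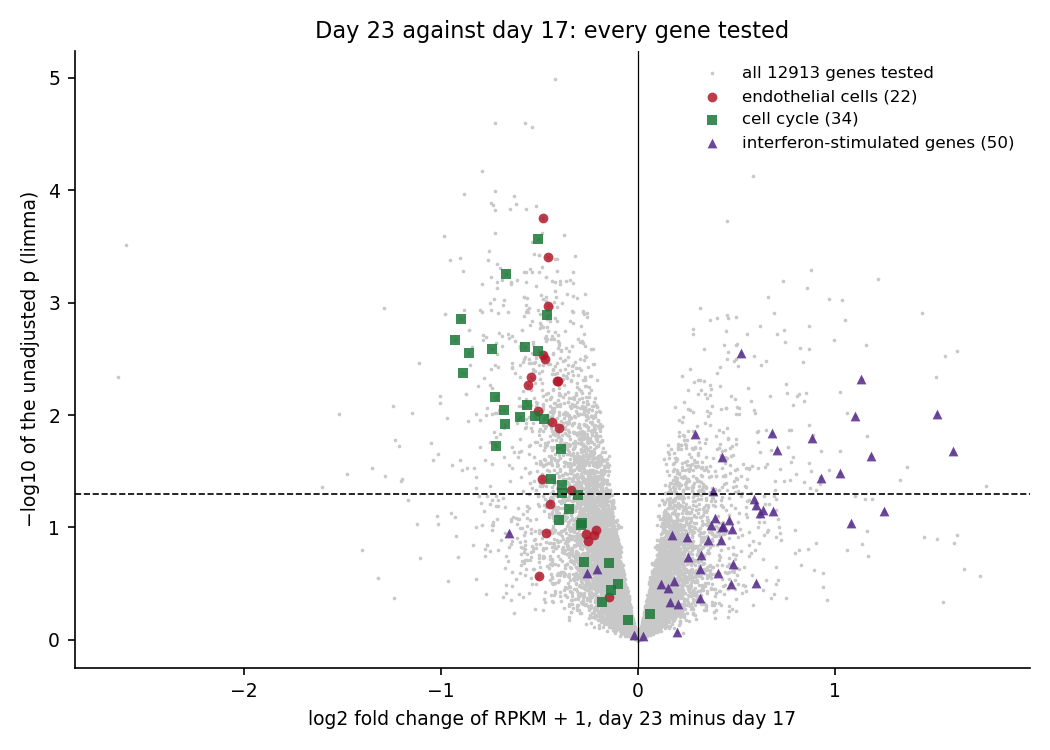
Log2 fold change of RPKM + 1 (x axis, day 23 minus day 17) against −log10 of limma's unadjusted p (y axis) for the 12913 genes tested, with 3 gene lists marked and a dashed line at an unadjusted p of 0.05. The 22 endothelial genes all lie left of 0, 33 of 34 cell cycle genes do too, and 46 of 50 interferon-stimulated genes lie right of 0.

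The clearest group was that of endothelial cell markers, a list chosen, like the others, with earlier results of these data known. All 22 tested markers had a lower mean on day 23, 14 of them at an unadjusted p under 0.05 and 0 at an adjusted one, and in 13 (59.1%) the animals of the 2 days did not overlap. The log2 fold changes ran from −0.56 to −0.14 with a median of −0.45. With median-ratio scaling, 13 markers had an unadjusted p under 0.05, 11 did not overlap and the median was −0.40. Leaving out any 1 of the 8 libraries left 12 to 14 markers at that p. It left 13 to 15 without overlap, a count that leaving out a library cannot lower. In whole tissue, fewer endothelial cells and less RNA per endothelial cell cannot be told apart.

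RAMP2, a receptor partner that makes the calcitonin receptor-like receptor respond to adrenomedullin, had the smallest p of the list. Its RPKM was 109, 119, 122 and 104 in day 17 replicates 1 to 4 and 91.0, 72.7, 78.6 and 82.4 in day 23 replicates 1 to 4, the order used for all values below. Every animal of day 23 was lower than every animal of day 17, with a log2 fold change of −0.48 ± 0.097 (SE) and an adjusted p of 0.132. ECSCR, an endothelial surface protein, was at 17.4, 21.3, 16.5 and 16.4 against 14.1, 11.5, 12.8 and 12.6. Its log2 fold change was −0.45 ± 0.10 (SE, adjusted p = 0.132), again without overlap.

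CDH5 and PECAM1 encode adhesion proteins of the junctions between endothelial cells, and they are named here after their values were seen, as are VWF, NOS3, PDGFB and APLNR below. CDH5 was at 59.4, 75.3, 53.9 and 68.7 on day 17 and at 50.9, 41.1, 48.0 and 45.5 on day 23. PECAM1 was at 35.6, 42.3, 36.3 and 47.4 against 26.5, 25.2, 33.8 and 29.0. Both sets were separate, with log2 fold changes of −0.46 and −0.48. EGFL7, a secreted factor of endothelial cells and the most abundant marker of the list, was at 109, 114, 132 and 133 against 99.2, 89.4, 68.2 and 104, also without overlap but with a wide spread on day 23 (adjusted p = 0.46). VWF, the clotting factor carrier stored in endothelial granules, overlapped: day 17 ran from 21.3 to 75.0 and day 23 from 27.7 to 32.6.

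**Figure D2:**
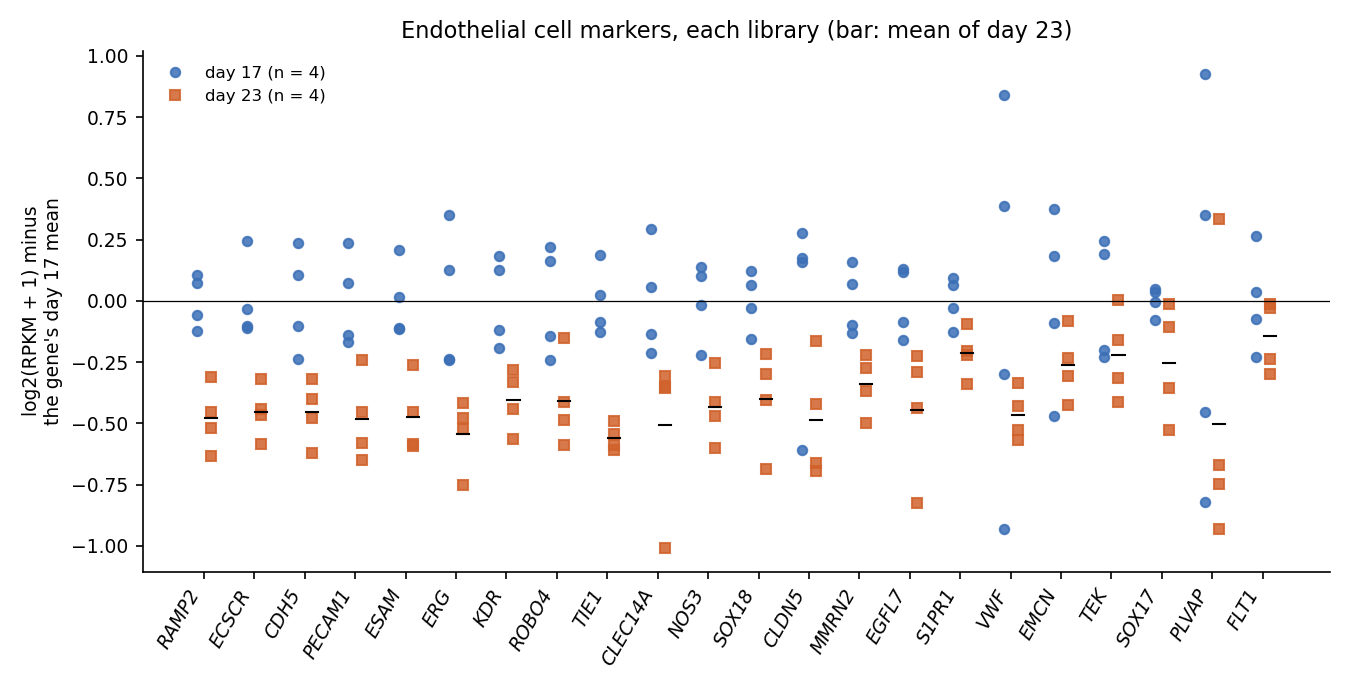
Log2(RPKM + 1) of 22 endothelial markers in each of the 4 libraries of day 17 (circles) and the 4 of day 23 (squares), relative to the gene's day 17 mean, with a bar at the day 23 mean, ordered by p. Every bar lies below 0, and VWF and PLVAP have the widest spread among day 17 animals.

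Taken as 1 value per library, the mean log2(RPKM + 1) over the 22 markers was 5.09, 5.30, 5.06 and 5.13 on day 17 and 4.82, 4.65, 4.76 and 4.72 on day 23. The lowest of day 17 was thus above the highest of day 23. For the other days it ran from 4.82 to 5.31 on day 14 and from 4.90 to 5.05 on day 20, so that 1 animal of day 14 was just below the highest of day 23. The difference of the means of day 23 and day 17 was −0.41, with SDs of 0.109 on day 17 and 0.074 on day 23 (n = 4 each).

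Among the receptors and ligands of angiogenesis, 30 of 37 tested genes had a lower mean on day 23, with a median of −0.24. Of the 37, 6 (16.2%) were lower at an unadjusted p under 0.05 and none higher at that p. 4 (10.8%) did not overlap: KDR, TIE1, NOS3 and PDGFB. KDR, the main receptor for VEGF on blood vessels, was at 80.7, 99.8, 76.5 and 95.8 on day 17 and at 59.0, 69.6, 64.4 and 71.9 on day 23, with a log2 fold change of −0.40 ± 0.12 (SE, adjusted p = 0.196). TIE1, the partner of the angiopoietin receptor, was at 56.0, 50.2, 62.8 and 51.8 against 38.8, 35.7, 37.4 and 36.2. The 4 animals of day 23 lay close together here, and the log2 fold change was −0.56 ± 0.17 (SE, adjusted p = 0.207).

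The ligand VEGFA showed no such difference. It was at 84.2, 158, 88.2 and 136 on day 17 and 77.3, 133, 138 and 110 on day 23, and its log2 fold change of −0.01 ± 0.24 (SE) took either sign between scalings. NRP1, a VEGF co-receptor shared by endothelial and other cells, was at 112 ± 22.9 on day 17 and 113 ± 10.6 on day 23 (SD, n = 4). APLNR, the apelin receptor of sprouting vessels, was at 22.4, 36.8, 15.0 and 21.6 against 14.9, 12.2, 16.9 and 13.6, with overlap and an unadjusted p of 0.0297. 5 of the 38 angiogenic genes are also in the endothelial list. Of the 32 tested that are not, 25 had a lower mean, 3 at an unadjusted p under 0.05 and 1 without overlap. Over all genes 8.96% were lower at that p and 5.3% below without overlap. The counts of 3 and 1 outside the endothelial list were thus near the shares of all genes. Without day 17 replicate 1, 11 of the 37 were below without overlap in place of 4. Over all genes, 1029 then were in place of 685. Without day 17 replicate 2 the median of the 37 was −0.14.

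ADM, which encodes the vessel-dilating peptide adrenomedullin read by the RAMP2 receptor, went the other way and is named after its values were seen. It was at 119, 154, 147 and 85.5 on day 17 and at 243, 294, 223 and 229 on day 23. All 4 animals of day 23 were above all 4 of day 17, with a log2 fold change of 0.99 ± 0.27 (SE, adjusted p = 0.157). Its means on day 14 and day 20 were 119 and 126. It was the only one of 31 tested genes of hypoxia and glycolysis without overlap upward.

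Of 46 tested genes of the extracellular matrix and its proteases, 37 had a lower mean on day 23, 9 at an unadjusted p under 0.05, and 9 (19.6%) lay below without overlap, with 0 above. The median of the list was −0.20. COL18A1, a basement membrane collagen whose end fragment is endostatin, was at 256, 312, 246 and 210 against 183, 127, 135 and 113. Its log2 fold change was −0.88 ± 0.17 (SE, adjusted p = 0.121). COL4A1 was at 669, 1044, 706 and 781 against 525, 392, 577 and 433. It encodes a chain of type IV collagen, the network of every basement membrane, and its log2 fold change was −0.72 ± 0.15 (SE, adjusted p = 0.132). COL4A2, its partner chain, named after its values were seen, was at 485, 695, 514 and 518 against 418, 299, 423 and 310, without overlap.

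The most abundant genes of the matrix list did not share this. TIMP2, an inhibitor of metalloproteinases, was at 7732 ± 1921 on day 17 and 8886 ± 553 on day 23 (SD, n = 4), with a log2 fold change of 0.23 that became −0.15 after quantile normalization. SPARC, a matrix protein of remodelling tissue, was at 2099, 3229, 2139 and 2071 against 2104, 1289, 2868 and 2175, with full overlap. Fibroblast markers, where COL1A1 and COL3A1 belong, had 0 of 14 tested genes at an unadjusted p under 0.05. The matrix list leaned on single animals: its median was −0.06 without day 23 replicate 2, −0.07 without day 17 replicate 2 and −0.39 without day 23 replicate 3.

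Of 16 markers of pericytes and smooth muscle, 13 had a lower mean on day 23, 5 at an unadjusted p under 0.05, and 4 (25%) lay below without overlap: CSPG4, KCNJ8, NOTCH3 and MCAM, the last 2 named after their values were seen. CSPG4, the NG2 proteoglycan on pericytes, was at 7.20, 10.3, 7.45 and 7.88 on day 17 and at 5.83, 4.85, 5.35 and 4.54 on day 23 (log2 fold change −0.58 ± 0.14 SE, adjusted p = 0.135). KCNJ8, a potassium channel subunit of pericytes, ran from 19.6 to 28.4 on day 17 and from 14.6 to 18.5 on day 23. ACTA2, the actin of contractile cells, overlapped, with 106, 256, 100 and 129 against 81.6, 53.9, 161 and 89.8. RGS5, a regulator of G protein signalling used as a pericyte marker, was at 183 ± 46.3 against 139 ± 51.9 (SD, n = 4). Their median of −0.32 was −0.20 without day 17 replicate 2, where 3 markers had an unadjusted p under 0.05. Without day 23 replicate 3, 7 markers lay below without overlap, as did 942 of all genes in place of 685. With median-ratio scaling 2 of the 16 markers did.

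Cell cycle genes formed the second large group. Of 40 genes on the list, 34 passed the filter, 33 of these had a lower mean on day 23, and 22 (64.7%) had an unadjusted p under 0.05, against 0 that were higher at that p. In 13 (38.2%) the days did not overlap. The median log2 fold change was −0.47, or −0.42 with median-ratio scaling, where 20 had that p and 10 did not overlap. 2 of the 34, CDT1 and GINS2, reached an RPKM of 1 on day 17 only, so that the filter fixed their direction and lack of overlap. Without them, a count made after seeing the data, 31 of 32 had a lower mean and 20 had an unadjusted p under 0.05. Of the 32, 11 (34.4%) did not overlap, and the median was −0.45. MKI67, which on day 23 reached an RPKM of 1 in replicate 3 only, stays in that count, so that the filter can still shape it. Most members were low: 11 had a mean RPKM of at least 5, and when the fit took such genes alone, 3 of the 11 had an unadjusted p under 0.05 and 4 did not overlap. A pseudocount of 1 shrinks the fold change of the low ones.

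PLK1, a kinase that drives mitosis, was at 4.29, 5.17, 4.95 and 4.40 on day 17 and at 3.37, 2.98, 3.05 and 2.67 on day 23. No animals overlapped, and the log2 fold change was −0.51 ± 0.11 (SE, adjusted p = 0.132). GINS2, a subunit of the replication helicase, was at 1.36, 1.67, 1.59 and 2.01 against 0.732, 0.385, 0.933 and 0.643, values given as a description since the filter fixed their order. MKI67, the standard marker of proliferating cells, named after its values were seen, was at 1.95, 2.95, 2.45 and 3.59 against 0.857, 0.694, 1.76 and 0.770, a ratio of 0.373. Day 23 replicate 3 was the highest of its day for MKI67 and GINS2. Without it 23 of the 34 genes lay below without overlap in place of 13. Over all genes that count went from 685 to 942.

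The 2 most abundant members differed less. MCM7, a subunit of the replication helicase, was at 18.9 ± 1.62 on day 17 and 17.0 ± 1.55 on day 23 (SD, n = 4). RRM1, the large subunit of ribonucleotide reductase, was at 19.3 ± 1.11 and 18.0 ± 2.62. The mean over the list was 2.07, 2.40, 2.13 and 2.51 on day 17 and 1.81, 1.65, 2.05 and 1.72 on day 23 on the log2(RPKM + 1) scale. On day 14 it ran from 2.04 to 2.45 and on day 20 from 1.95 to 2.53, so that 3 animals of day 23 were below all 12 of the other days. The endothelial markers differed in the same direction in these libraries, and which cells carried the cell cycle transcripts was not tested.

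**Figure D3:**
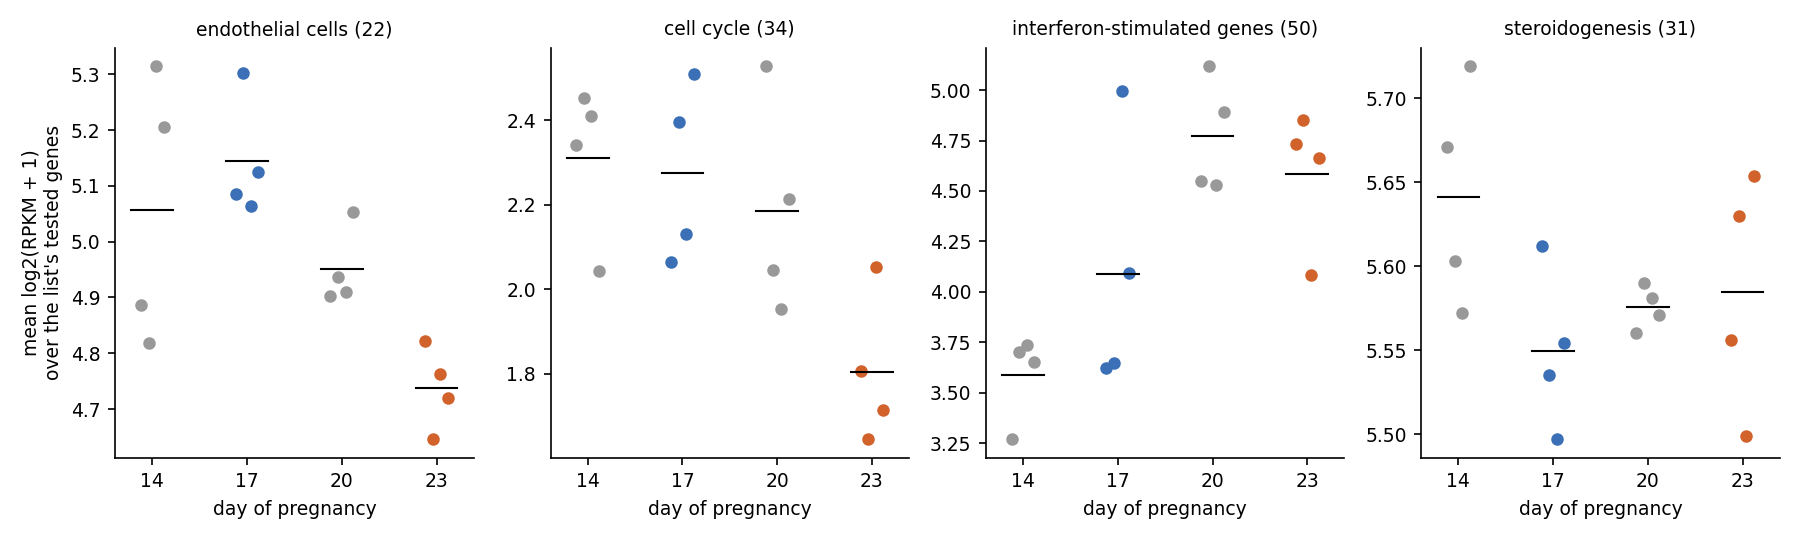
Mean log2(RPKM + 1) over the tested genes of 4 lists (y axis) in each of the 16 libraries by day of pregnancy (x axis), with a bar at the mean of a day; day 17 and day 23 are coloured and y axes do not start at 0. Day 23 lies below day 17 for endothelial markers and cell cycle genes, while day 17 replicate 3 stands at 4.99 for interferon-stimulated genes, above all animals of day 23.

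IGF2 was the most abundant of the 10 genes that headed the lower side. It encodes an insulin-like growth factor. It was at 294, 351, 336 and 285 on day 17 and at 225, 150, 172 and 189 on day 23, with a log2 fold change of −0.79 ± 0.15 (SE, adjusted p = 0.121). Its means on day 14 and day 20 were 245 and 234. Of the 15 tested genes of the IGF system, 3 lay below without overlap: IGF2, its clearance receptor IGF2R and the binding protein IGFBP6, the latter pair named after their values were seen. IGF2R was at 67.9, 68.0, 57.9 and 69.0 against 55.8, 43.4, 56.8 and 57.8. With median-ratio scaling 1 of the 15 lay below without overlap.

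IGFBP5, a binding protein of the same system, was higher on day 23 in means. It was at 139, 59.8, 83.4 and 29.0 on day 17 and at 129, 236, 161 and 235 on day 23. The log2 fold change was 1.44 ± 0.36 (SE, adjusted p = 0.135), and day 23 replicate 1 lay below day 17 replicate 1. IGFBP4, a binding protein and the most abundant gene of the list, was at 501 ± 112 and 443 ± 98.6 (SD, n = 4).

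The other genes that headed the lower side are of mixed roles. ARPC5L, a subunit of the actin-branching complex, had the smallest p of all, with 41.4, 44.6, 43.3 and 42.3 on day 17 and 30.5, 32.5, 32.8 and 31.7 on day 23. The SD was 1.38 on day 17 and 0.992 on day 23 (n = 4 each), and the log2 fold change was −0.42 ± 0.065 (SE, adjusted p = 0.0884). SOX12, a transcription factor, was at 11.7, 14.4, 12.1 and 13.4 against 8.79, 7.76, 9.50 and 7.32. TMEM88, a membrane protein known to damp WNT signalling, was at 36.4, 40.2, 37.9 and 41.2 against 31.0, 18.9, 22.3 and 21.9 (log2 fold change −0.72 ± 0.12 SE, adjusted p = 0.0884). It passed the threshold without day 23 replicate 1, its highest animal of that day, at a log2 fold change of −0.86.

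PITPNM2, a phosphatidylinositol transfer protein, was at 13.1 ± 0.363 on day 17 and 8.76 ± 0.955 on day 23 (SD, n = 4). EXOC3L1 was at 19.8 ± 2.64 and 11.5 ± 0.989. COL27A1, a fibrillar collagen, was at 14.7 ± 1.54 and 9.12 ± 0.374. SERPINC1, antithrombin, which is made mainly by the liver, was low, with 2.01, 2.43, 2.33 and 2.25 against 1.32, 0.973, 1.01 and 0.554. SEPT4, a septin, was at 52.3 ± 5.59 and 33.7 ± 2.37. In all 10 of these lower genes no animal of day 23 reached the lowest of day 17, and the adjusted p was 0.0884 to 0.121.

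The 9 genes described here that headed the higher side had adjusted p of 0.121 to 0.135. FMNL2, a formin that extends actin filaments, was at 15.6, 15.3, 13.9 and 19.4 on day 17 and at 22.2, 26.3, 22.2 and 27.4 on day 23 (log2 fold change 0.58 ± 0.11 SE, adjusted p = 0.121). CCPG1, a receptor for the turnover of the endoplasmic reticulum by autophagy, was at 58.3, 58.9, 54.3 and 65.0 against 76.2, 86.8, 78.1 and 83.7. LAMP2, a membrane protein of lysosomes, was at 48.7, 46.5, 51.6 and 52.4 against 63.0, 60.2, 57.5 and 68.0. These 3 genes had no overlap between days.

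APOD, a lipid-binding lipocalin, was at 109, 66.3, 105 and 179 on day 17 and at 210, 279, 240 and 290 on day 23. Its log2 fold change of 1.22 ± 0.28 (SE, adjusted p = 0.132) was the largest of the 9, and its means were 86.5 on day 14 and 184 on day 20. SELENOP, the selenium carrier of plasma, was at 377, 309, 344 and 374 against 531, 836, 448 and 583. TMEM30A, a partner of the enzymes that flip phospholipids across membranes, was at 69.5, 111, 55.3 and 61.0 against 139, 200, 143 and 121, with day 17 replicate 2 standing apart from its day.

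ESR1, the estrogen receptor alpha, was at 7.64, 9.55, 6.83 and 8.99 on day 17 and at 13.1, 17.3, 10.8 and 13.7 on day 23 (log2 fold change 0.66 ± 0.16 SE, adjusted p = 0.135). LRRC3 was at 1.72 ± 0.55 and 4.02 ± 1.15 (SD, n = 4), and ANKRD33B at 0.683 ± 0.213 and 2.08 ± 0.624. ANKRD33B reached an RPKM of 1 on day 23 only, so that passing the filter fixed its direction and its lack of overlap. Of the 29 tested nuclear receptors and partners, 3 (10.3%) lay above without overlap, ESR1 with PPARA and THRB, the latter pair named after their values were seen. 1 lay below, RARG, a retinoic acid receptor, at 17.1 ± 1.36 against 12.8 ± 1.47. NR5A1, the factor that drives steroidogenic genes, was at 137 ± 26.9 and 149 ± 14.5, and PGRMC1, a membrane protein tied to progesterone action, at 149 ± 31.2 and 144 ± 13.3.

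**Figure D4:**
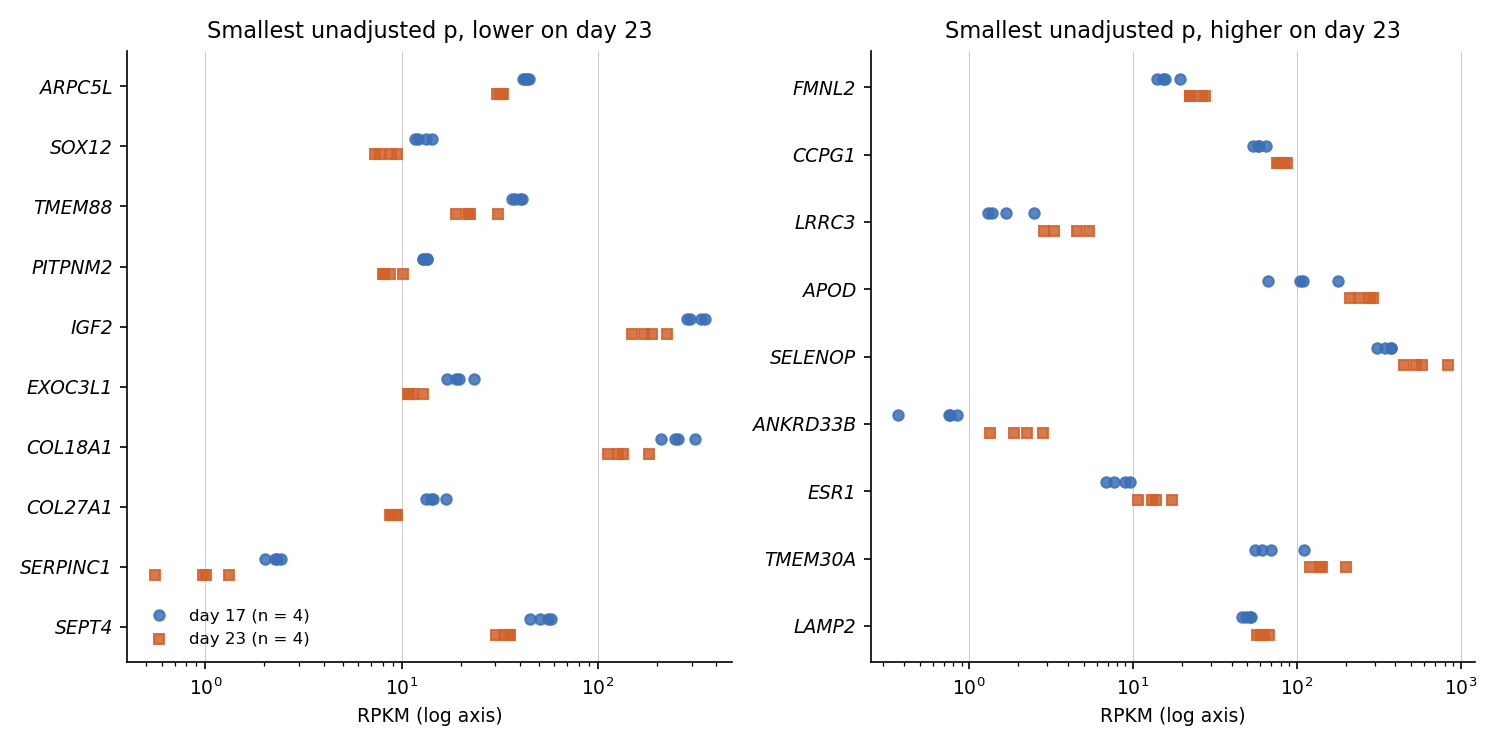
RPKM on a log axis in the 4 libraries of day 17 (circles) and the 4 of day 23 (squares) for the 10 lower (left) and 9 higher genes (right) described among those with the smallest unadjusted p. The days overlap in none of the 19 genes drawn, and no gene passed an adjusted p of 0.05.

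Interferon-stimulated genes leaned to higher values on day 23, with 46 of 50 tested members higher in mean, 14 (28%) at an unadjusted p under 0.05 and 0 lower at that p. 3 (6%) lay above without overlap, EIF2AK2, STAT2 and TRIM25, the latter pair named after their values were seen. The median log2 fold change was 0.43, the largest of any list in either direction after those of the endothelial and cell cycle genes. The mean over the list was 3.62, 3.65, 4.99 and 4.10 on day 17 and 4.74, 4.85, 4.08 and 4.67 on day 23. Day 17 replicate 3 was thus above every animal of day 23, and day 23 replicate 3 was below day 17 replicate 4. Without day 17 replicate 3, 40 of the 50 genes had an unadjusted p under 0.05, 21 lay above without overlap and the median was 0.71. Of all genes, 252 then lay above without overlap in place of 168. Without day 17 replicate 1 the median was 0.28. Without day 23 replicate 3 the count at that p was 28, and without day 17 replicate 1 or 2, or day 23 replicate 1, 2 or 4, it was 4 to 9.

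ISG15, the ubiquitin-like modifier that labels proteins in this response, was at 26.8, 28.4, 360 and 61.3 on day 17 and at 193, 238, 69.3 and 178 on day 23. Its log2 fold change was 1.25 ± 0.64 (SE, adjusted p = 0.479). Its mean was 21.2 on day 14 and 196 on day 20, against 170 on day 23. MX1, an antiviral GTPase, was at 44.2, 60.5, 235 and 75.1 against 196, 250, 89.9 and 189. In both genes day 17 replicate 3 was above 3 of the 4 animals of day 23 or more, and day 23 replicate 3 was the lowest of its day. MX2, its relative, was at 1.43, 0.922, 3.91 and 1.47 against 6.66, 7.37, 3.50 and 3.57, with an adjusted p of 0.194.

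IFIT1, which binds foreign RNA, was at 2.66, 4.03, 28.9 and 7.53 on day 17 and 26.5, 42.7, 11.7 and 19.5 on day 23. OAS1Y, a sensor of double-stranded RNA whose near-identical copies can share its reads, was at 94.2 ± 90.9 and 167 ± 52.5 (SD, n = 4). RSAD2, the antiviral enzyme viperin, was at 7.59 ± 5.52 and 11.3 ± 2.90. IFI6, a membrane protein of this response and with LGALS3BP the most abundant of the list, was at 155, 114, 734 and 355 against 1294, 1150, 281 and 944. Its log2 fold change of 1.60 ± 0.62 (SE, adjusted p = 0.323) was the largest of the list. LGALS3BP, a secreted glycoprotein, was at 501 ± 120 and 587 ± 79.3.

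EIF2AK2, the kinase PKR that halts translation, differed in that day 17 replicate 3 did not stand out. It was at 6.45, 9.07, 10.6 and 11.6 on day 17 and at 12.5, 15.3, 12.4 and 14.8 on day 23 (log2 fold change 0.52 ± 0.15 SE, adjusted p = 0.164). STAT2, which carries the type I interferon signal to the nucleus, was at 33.8, 34.0, 15.2 and 5.52 against 36.6, 46.1, 35.7 and 41.3. Its low animals on day 17 were replicates 3 and 4, a different order from that of ISG15. Of 12 tested interferon receptors and JAK kinases, 0 had an unadjusted p under 0.05, and of 28 genes of antigen presentation also 0.

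Genes of luteal cells gave no common direction. Of 10 tested luteal markers, 7 had a higher and 3 a lower mean, with 2 each way at an unadjusted p under 0.05 and 0 without overlap. STAR, which brings cholesterol into mitochondria, the rate-limiting step of steroid synthesis, was at 3104, 1594, 2580 and 2101 on day 17 and at 2723, 3900, 3235 and 4376 on day 23. The log2 fold change was 0.62 ± 0.24 (SE, adjusted p = 0.324), with day 23 replicate 1 inside the range of day 17. HSD3B1, the enzyme that makes progesterone, was at 5037, 4141, 5487 and 4371 against 4996, 6919, 4927 and 6487. CYP11A1, the side chain cleavage enzyme, was at 4160 ± 1067 and 4047 ± 289 (SD, n = 4), a log2 fold change of −0.005 ± 0.17 (SE) that became 0.05 with median-ratio scaling.

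Over the 31 tested genes of steroidogenesis the median log2 fold change was 0.04, or −0.0096 to 0.067 with 1 library left out, with 1 lower and 2 higher at an unadjusted p under 0.05. The lower one was STARD3, a cholesterol carrier of late endosomes, at 17.2 ± 1.67 and 15.0 ± 1.25. SCARB1, the receptor that takes up cholesterol from HDL, was at 3862 ± 574 and 4203 ± 385. Of 37 tested genes of cholesterol synthesis and uptake, 29 had a higher mean, 3 at an unadjusted p under 0.05, and the median was 0.10. Without day 23 replicate 2, 18 had a higher and 19 a lower mean, and the median was −0.0030. Leaving out day 17 replicate 1 gave 0.032, and leaving out day 23 replicate 3 gave 0.029. LIPA, the lysosomal acid lipase, was at 33.8 ± 5.37 and 47.0 ± 12.1, and APOA1, the protein of HDL, at 3439, 3542, 3445 and 1697 against 2666, 3846, 4373 and 3329. SREBF1, a regulator of lipid synthesis named after its values were seen, was the only one of the 37 above without overlap.

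OXT, oxytocin, a peptide of the large luteal cells, had the lowest p of the luteal markers. It was at 2598, 3395, 2949 and 1320 on day 17 and at 2090, 1092, 1077 and 957 on day 23, with day 17 replicate 4 inside the range of day 23. The log2 fold change was −0.97 ± 0.33 (SE, adjusted p = 0.249), and the means on day 14 and day 20 were 4197 and 1708. PRLR, the prolactin receptor, was at 9.26, 16.7, 4.43 and 14.3 against 13.2, 22.5, 29.3 and 18.7. PTGFR, the receptor of the prostaglandin that ends the corpus luteum, was at 304, 553, 286 and 360 against 404, 566, 619 and 407 (log2 fold change 0.43 ± 0.25 SE, adjusted p = 0.531). PGR, the progesterone receptor, was barely above the filter at 1.27 ± 0.127 and 1.29 ± 0.124 (SD, n = 4). INHA, the inhibin subunit, named after its values were seen, was at 56.5 ± 12.2 and 36.8 ± 16.8.

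Genes of the protein-making machinery were a little lower. Of 56 tested genes for cytosolic ribosomal proteins, 55 had a lower mean on day 23, 17 (30.4%) at an unadjusted p under 0.05, and 9 (16.1%) lay below without overlap. The median was −0.21. This group leaned on scaling and on single animals. With median-ratio scaling, 6 had that p, 1 did not overlap and the median was −0.16. Without day 17 replicate 2, 33 had that p and 31 lay below without overlap, as did 1073 of all genes in place of 685. Without day 23 replicate 2, 3 had that p, without day 17 replicate 1, 4, and without day 17 replicate 3, 8. Without day 23 replicate 1, 17 lay below without overlap, as did 1205 of all genes. Reads of ribosomal genes can be shared with their near-identical pseudogenes, so that single values are uncertain.

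RPLP2, a protein of the ribosomal stalk, was at 579, 464, 484 and 400 on day 17 and at 382, 326, 381 and 366 on day 23 (log2 fold change −0.39 ± 0.11 SE, adjusted p = 0.17). RPS7, of the small subunit, was at 738, 641, 669 and 686 against 573, 456, 587 and 564. The most abundant members, RPLP0 and RPLP1, overlapped, at 1765 ± 226 and 1646 ± 138 and at 1742 ± 203 and 1641 ± 140 (SD, n = 4). Of 40 tested subunits of oxidative phosphorylation, 35 had a lower mean, but only 2 had an unadjusted p under 0.05 and 1 lay below without overlap. That one was NDUFA8, of complex I, from 78.98 to 99.95 on day 17 and from 71.64 to 78.96 on day 23, so that the closest animals were barely apart. ATP5MC3, of the ATP synthase ring, was at 266 ± 26.5 and 223 ± 21.9. ATP5F1B and COX6A1, the most abundant, were at 613 ± 46.9 and 579 ± 39.1, and at 693 ± 111 and 702 ± 65.7. Without day 17 replicate 4, 23 of the 40 had an unadjusted p under 0.05 and 17 lay below without overlap. Of all genes, 996 then lay below without overlap in place of 685.

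Of 32 tested genes of apoptosis, 26 had a lower mean on day 23, 6 (18.8%) at an unadjusted p under 0.05 and 0 higher at that p. 5 (15.6%) lay below without overlap, among them BAK1, BID, BOK and CASP6, the last 3 named after their values were seen. BAK1, which opens the outer mitochondrial membrane, was at 35.0, 32.4, 34.0 and 27.1 on day 17 and at 25.3, 26.1, 24.8 and 22.1 on day 23 (log2 fold change −0.37 ± 0.097 SE, adjusted p = 0.148). BID, which activates BAK1, was at 31.6, 27.0, 29.6 and 25.9 against 23.4, 18.4, 20.8 and 25.5. With median-ratio scaling 2 of the 32 lay below without overlap. TNFRSF1A, a TNF receptor, and AIFM1, a mitochondrial flavoprotein, the most abundant of the list, were at 131 ± 12.5 and 132 ± 11.7, and at 78.5 ± 10.6 and 78.1 ± 9.30 (SD, n = 4).

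HBB, the beta chain of hemoglobin, had the second largest log2 fold change of all genes tested, −2.59 ± 0.56 (SE, adjusted p = 0.132). It was at 14.9, 4.11, 0.921 and 21.8 on day 17 and at 0.119, 0.0393, 1.12 and 0.0839 on day 23, so that replicate 3 of each day overlapped, and its mean was 0.228 on day 14 and 0.217 on day 20. Only day 17 replicates 1, 2 and 4 and day 23 replicate 3 reached an RPKM of 1. HBB thus passed the filter mainly through day 17, the day where it was high. It passed the threshold without day 17 replicate 3, at a log2 fold change of −3.26. Of the 9 red blood cell markers found, 3 were tested, and HBB was the only one with an unadjusted p under 0.05.

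Of 9 tested markers of natural killer and cytotoxic cells, 8 had a lower mean on day 23, 1 at an unadjusted p under 0.05. That was NCR1, an activating receptor, at 1.63, 1.19, 1.96 and 0.903 against 0.504, 0.576, 1.202 and 0.504. NCR1 passed the filter mainly through day 17, with an RPKM of 1 reached only in its replicates 1 to 3 and in day 23 replicate 3. GNLY, a killing peptide of granules, lay below without overlap, at 4.87, 3.57, 3.35 and 6.19 against 1.80, 2.74, 1.46 and 3.17 (log2 fold change −0.74 ± 0.36 SE, adjusted p = 0.44). CTSW, a protease of these cells, and XCL1, a chemokine they release, overlapped, at 9.02 ± 4.45 and 7.29 ± 1.42, and at 7.64 ± 6.19 and 8.44 ± 5.65 (SD, n = 4). Of 17 macrophage and monocyte markers, 15 had a lower mean but 0 an unadjusted p under 0.05, or 4 without day 17 replicate 2. Their median of −0.14 ran from −0.42 without day 17 replicate 2 to 0.015 without day 17 replicate 1. Among them, ITGAM, an integrin, ran from 1.73 to 3.12 on day 17 and from 0.776 to 2.71 on day 23. FCER1G, an Fc receptor chain, was at 23.0 ± 7.97 and 16.9 ± 3.87. C1QB and C1QC, complement chains made by macrophages, were at 86.6 ± 40.7 and 70.7 ± 12.5, and at 107 ± 49.3 and 90.3 ± 15.7. Of 13 T cell markers 0 had an unadjusted p under 0.05. Of 6 tested dendritic cell markers also 0 did. ZBTB46, a transcription factor on that list named after its values were seen, was the only 1 of the 6 below without overlap. It ran from 13.87 to 20.09 on day 17 and from 11.13 to 13.81 on day 23. Which cells carried it was not tested.

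Markers of the lymphatic endothelium had no common direction. Their median log2 fold change was 0.095, or −0.084 to 0.23 with 1 library left out. The mean over the list ran from 3.28 to 4.52 on day 17 and from 3.86 to 4.41 on day 23. Of the 8 markers, 5 had a higher and 3 a lower mean, and 1 lay above without overlap. That was PDPN, a surface glycoprotein of lymphatic vessels also made by other cells, at 78.8, 110, 77.1 and 86.5 on day 17 and at 116, 259, 132 and 146 on day 23 (log2 fold change 0.82 ± 0.23 SE, adjusted p = 0.159). FLT4, the receptor of the lymphatic growth factor VEGFC, was at 17.1, 15.5, 26.9 and 38.8 against 14.9, 18.6, 14.1 and 20.7. CCL21, the chemokine of lymphatic vessels, was at 321, 75.0, 503 and 573 against 271, 276, 223 and 296. The difference between the lymphatic and the endothelial lists was not tested.

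Among the 33 lists with at least 8 tested genes, the share of members below without overlap was 59.1% for endothelial markers, 38.2% for cell cycle genes (34.4% without CDT1 and GINS2), 25% for pericytes and smooth muscle, 20% for the IGF system, 19.6% for matrix, 16.1% for ribosomal proteins and 15.6% for apoptosis, against 5.3% of all genes. These shares are of RPKM as deposited, and the filter can still shape that of the cell cycle genes. With median-ratio scaling, 3.65% of all genes lay below without overlap. Fewer members then did in the endothelial, cell cycle, pericyte, IGF, ribosomal and apoptosis lists, with ribosomal proteins under the share of all genes. As deposited, lists of immediate early genes, the circadian clock, complement, prostaglandin genes, glucocorticoid-responsive genes and granulosa cells had 0 members without overlap either way. Members of a list share animals and often a cell type, and the lists were chosen with earlier results of these data known. The shares thus describe the lists and were not tested.

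**Figure D5:**
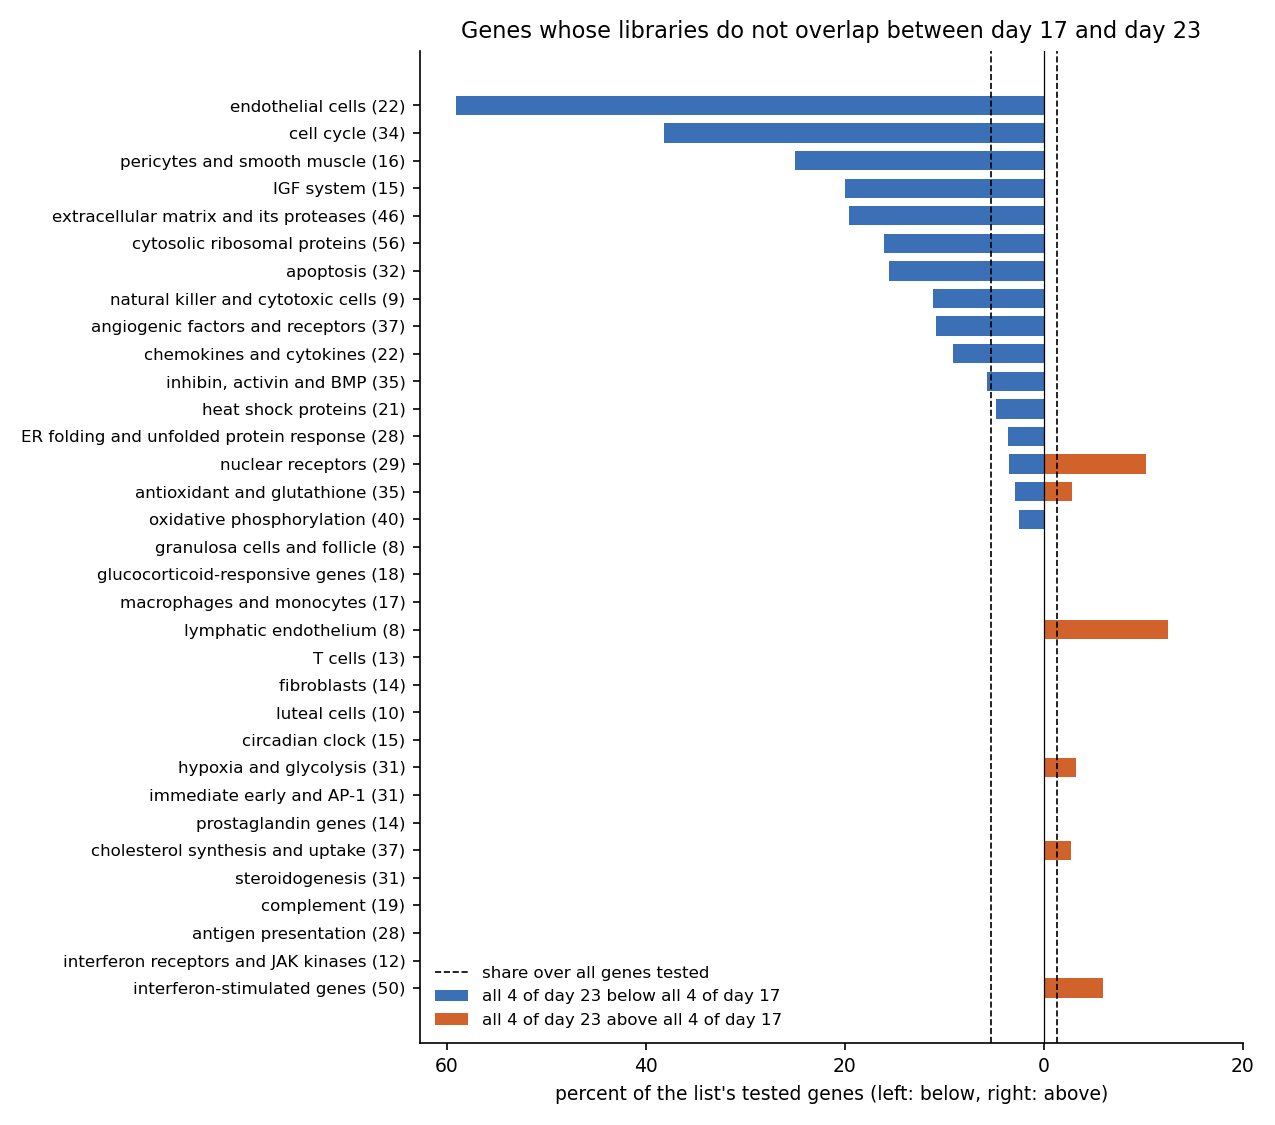
Percent of the tested genes of each list (number in parentheses) in which all 4 libraries of day 23 lay below (left) or above (right) all 4 of day 17, with dashed lines at the shares over all genes, 5.3% below and 1.3% above. Endothelial markers reach 59.1% below, and lymphatic endothelium, with 1 of 8 genes, has the longest bar above. Shares are of RPKM as deposited.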

How the data were processed

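The authors deposited 1 table of RPKM for 16 libraries of whole corpora lutea, 4 per day. Per the labels' protocols, total RNA went into TruSeq Stranded mRNA libraries. Per the submitters' processing notes, HISAT2 2.1.0, featureCounts 1.5.3 and build ARS-UCD1.2 were used. Strand settings of counting are not given in the sources used here. RPKM divides by 1 total per library, so that genes taking more reads lower all others.

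Samples were grouped by labelled day. Log2(RPKM + 1) was fitted with limma 3.58.1 in R 4.3.3, with 1 model over 16 libraries (12 residual degrees of freedom), an intensity trend and two-sided p-values adjusted by Benjamini-Hochberg, threshold 0.05. A pseudocount of 1 understates fold changes of low genes. The fit was tried on simulated reads with independent genes, 1 common spread and larger changes than most described here. That is a check of the code and not of this comparison. RPKM steps gave whole reads for all 27233 genes within a tolerance of 0.001, used for depth and for limma's voom as an alternative, which called 0 genes.

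Lists of genes (41, with 25 for pathways and 16 for markers of cell types) were described by counts and medians without a set test. 50 of their 976 symbols were not matched in the table and are not analysed here. Of rows sharing a symbol, the one with the highest mean was used. Members and lists were chosen with earlier results of these data known. Genes named are the 10 with the smallest p each way, for each list described the 2 with the smallest p and the 2 with the highest RPKM, and landmarks of luteal function and interferon response. A few genes that this rule names are not reported here. Alternatives were other pseudocounts, filters, scalings, weights and spread estimates, a replicate block, only the 8 libraries, and each library left out.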

Additional observations from a re-analysis of the deposited data

Results flagged for a closer look

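In 15 of 258 sets of 4 animals of a day, 1 animal stood apart, its gap to the nearest other taking a larger share of the range of log2(RPKM + 1) than Dixon's 95% critical value for 4 samples. Chance gives about 1 in 20 such sets. The share follows each name. On day 17 these were ANKRD33B (0.832, replicate 2 low), SPARC (0.926, replicate 2 high), PGR (0.883, replicate 3 low), APOA1 (0.96, replicate 4 low), AIFM1 (0.837, replicate 4 low), IGF2R (0.906, replicate 3 low) and SREBF1 (0.943, replicate 2 low). On day 23 they were RPS7 (0.843, replicate 2 low), OXT (0.831, replicate 1 high), NCR1 (0.877, replicate 3 high), HBB (0.896, replicate 3 high), IGF2R (0.882, replicate 2 low) and IGFBP6 (0.842, replicate 2 low). Of the list means on day 17, that of cholesterol synthesis and uptake (0.925, replicate 1 low) and that of apoptosis (0.849, replicate 4 low) stood apart.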

How the results depend on the processing

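No gene passed an adjusted p of 0.05 under the other pseudocounts, filters, scalings, weights, spread estimates, voom or the 8-library fit. With each library left out in turn, 0 to 1 genes passed, AJM1 without day 17 replicate 1, HBB without day 17 replicate 3 and TMEM88 without day 23 replicate 1. Genes at an unadjusted p under 0.05 then numbered 793 to 1336 lower and 283 to 453 higher. The higher ones numbered 668 with median-ratio scaling and 648 with quantile normalization, against 378. The labels do not say what the replicate numbers mark. Deviations of same-numbered libraries correlated at 0.225, 0.0523, −0.112 and 0.126, and those of other pairs at −0.278 to 0.225. Correlations of so few libraries cannot tell whether same-numbered animals shared a batch. The fit with a replicate block called 0 genes, with 1164 lower and 387 higher at an unadjusted p under 0.05.

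Of 2337 gene values under 21 alternatives, 2285 kept their direction and side of the threshold, 2 came to pass it and 49, in 17 genes, turned sign. The values turned by scaling or weights were VEGFA at 0.042 with median-ratio scaling and 0.043 with array weights, CYP11A1 at 0.046, AIFM1 at 0.047 and PGRMC1 at 0.023 with median-ratio scaling, TIMP2 at −0.15, RPLP1 at 0.0047, AIFM1 at 0.023 and ATP5F1B at 0.020 with quantile normalization, and COX6A1 at −0.0009418 and PGRMC1 at 0.0007527 with array weights. HSD3B1 was at 0 with quantile normalization. With libraries left out, values ran from −0.093 to 0.14 for NRP1, −0.15 to 0.17 for VEGFA, −0.37 to 0.011 for SPARC, −0.16 to 0.12 for CYP11A1, −0.030 to 0.047 for PGR, −0.46 to 0.031 for CTSW, −0.36 to 0.75 for XCL1, −0.77 to 0.20 for CCL21, −0.046 to 0.072 for TNFRSF1A, −0.11 to 0.054 for AIFM1, −0.074 to 0.094 for COX6A1, −0.15 to 0.084 for PGRMC1, −0.58 to 0.094 for C1QB and −0.53 to 0.14 for C1QC. The causes were not tested. Genes under the RPKM filter were not compared, and the cell cycle genes lie close to it.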
